A study of Mus musculus with 124 samples.

Results

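The cerebral cortex of mice was examined on the second day after 1 bout of sleep deprivation, at 3 times of day, T54, T60 and T66, each against undisturbed mice sampled at that hour of the day. The cortex table of the series was used, and from it the libraries of these 3 deprived groups and of their 3 control groups were taken, which are 24 of 62 cortex libraries (9 deprived and 15 control) and 24 of 124 libraries in the whole series. Times are given in hours from the start of a baseline day. Deprived mice (SD) lost the first 6 h of their light-phase sleep to gentle handling, from T24 to T30, and were then left to sleep. They were sampled at T54 (n = 3), T60 (n = 3) and T66 (n = 3), which are 24, 30 and 36 h after the end of deprivation. Controls (NSD) slept undisturbed and were sampled on the baseline day at ZT6 (n = 5), ZT12 (n = 5) and ZT18 (n = 5), where ZT (zeitgeber time) counts hours from lights on. The mice were 11 to 12 weeks old, and strain and sex are not given in the labels.

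Sleep lost by enforced wake is followed by deeper and longer sleep, and wake itself raises and lowers many cortical transcripts, among them activity-regulated genes, clock genes and chaperones. Most of these return once the animal has slept. Cholesterol in the brain is made locally because lipoproteins of the blood do not cross the blood-brain barrier, and its synthesis genes are switched on together by the transcription factor SREBP2 when sterol in the endoplasmic reticulum is low. The question here was which genes still differed on the second recovery day, and which differences pointed the same way at all 3 times.

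Expression of 17108 named genes was given as log2 CPM, in which each library is scaled to a common total. A change is the difference of log2 CPM, deprived minus control, fitted with limma over all 62 cortex libraries with the label batch as a covariate. A gene was called at a Benjamini-Hochberg adjusted p of at most 0.05 over all genes. The T54 mice were all in label batch 1 and the T60 and T66 mice all in batch 2, while each control group had 3 libraries of batch 1 and 2 of batch 2. No library duplicated another, since the root mean square difference within a group was 0.23 to 0.368 log2 units (39 pairs). Markers of excitatory neurons averaged 5.808 to 5.951 log2 CPM by group and those of interneurons 5.719 to 5.791. Those of choroid plexus and ependyma averaged 0.0424 to 0.499 and those of thalamus and hypothalamus 2.428 to 2.518. Striatum markers averaged 2.926 to 3.011 and hippocampus markers 2.782 to 2.949. These levels go with the tissue label, but they cannot show that no neighbouring tissue was taken along. Nothing in the labels says that mice of a group came from separate litters or days, so p-values measure the spread between these libraries. In whole tissue, fewer cells of a type and less RNA per cell cannot be told apart.

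No gene passed the threshold at any single time. At T54 0% of genes were called (0 of 17108, smallest adjusted p 0.0684), at T60 0% (smallest adjusted p 0.218), and at T66 0% (smallest adjusted p 0.0588). At an unadjusted p under 0.05, 1750 genes differed at T54 (1004 higher, 5.87%, and 746 lower, 4.36%), 1198 at T60 (651 higher, 3.81%, and 547 lower, 3.2%) and 1627 at T66 (732 higher, 4.28%, and 895 lower, 5.23%). The groups did not overlap for 3.5% of genes at T54, 8.23% at T60 and 6.65% at T66. The median half-width of a gene's 95% confidence interval was 0.157 at T54 and 0.162 at T60 and at T66, so changes smaller than that were not detectable for most genes at a single time. These intervals are not adjusted for the number of genes, and larger changes could also miss the threshold. At T54 Rac3, with a change of 0.43, and Cort, with 0.91, were not called (limma, adjusted p = 0.0684 for both). Changes beyond 2-fold were fitted for 9, 22 and 25 genes at T54, T60 and T66, none of them called.

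Few changes shared direction over the 3 times. A positive change at all 3 times was found in 1778 genes (10.4%) and a negative one in 1851 (10.8%). No gene was called with the same sign at each time, and no gene was called for a difference between the 3 times (F test, 0%, 1870 genes at an unadjusted p under 0.05). Only 4 genes (0.0234%) had 1 sign and an unadjusted p under 0.05 at every time, namely Dap3, Stmn1 and the unnamed gene models Gm4544 and 9530059O14Rik, of which the last was lower. Averaging the 3 changes narrowed the median half-width to 0.0916, and 9 genes (0.0526%) were called for that mean, 8 higher and 1 lower. For the mean, 733 genes were higher (4.28%) and 596 lower (3.48%) at an unadjusted p under 0.05.

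Dap3 and Stmn1 were the only genes (0.0117%) whose deprived libraries lay beyond every control on the same side at all 3 times. Dap3 encodes a protein of the small subunit of the mitochondrial ribosome. At T54 Dap3 stood at 5.87, 5.83 and 5.85 log2 CPM in deprived mice, against 5.75, 5.76, 5.73, 5.72 and 5.73 in ZT6 controls. At T60 it stood at 5.88, 5.87 and 5.89 log2 CPM in deprived mice, against 5.75, 5.82, 5.8, 5.79 and 5.79 in ZT12 controls. At T66 it stood at 5.94, 5.94 and 5.9 log2 CPM in deprived mice, against 5.8, 5.85, 5.86, 5.8 and 5.86 in ZT18 controls. Its lowest deprived library was above the highest control at each time, by a narrow margin. The mean change of Dap3 was 0.10 ± 0.0197 log2 (SE, limma, adjusted p = 0.0293). The gene lies at chr3:88920803-88951181 on the minus strand of GRCm38, where Ash1l overlaps it on the other strand. The mean change of Ash1l was −0.0708.

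Stmn1 encodes stathmin, a protein that binds tubulin and promotes the shortening of microtubules. At T54 Stmn1 stood at 7.6, 7.58 and 7.58 log2 CPM in deprived mice, against 7.45, 7.5, 7.55, 7.49 and 7.55 in ZT6 controls. At T60 it stood at 7.7, 7.66 and 7.68 log2 CPM in deprived mice, against 7.48, 7.51, 7.66, 7.56 and 7.53 in ZT12 controls, with 1 control just under the lowest deprived library. At T66 it stood at 7.59, 7.58 and 7.6 log2 CPM in deprived mice, against 7.48, 7.51, 7.53, 7.47 and 7.46 in ZT18 controls. The deprived libraries were tight at each time and lay above all 5 controls. The mean change of Stmn1 was 0.10 ± 0.0205 log2 (SE, limma, adjusted p = 0.0293). Stmn1 (chr4:134468320-134473843, plus strand) was lower than its controls at the end of deprivation, by −0.155 at T30 (adjusted p = 0.000506), and at T36, by −0.164 (adjusted p = 0.000875). T30 has its controls in common with T54, and T36 with T60. The differences of Dap3 between T27 and T48 were −0.038 to 0.005, none called.

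The other called genes did not separate at every time and were picked out after their values were seen, apart from the enzymes Fdft1 and Sqle described with their pathway below. Atpif1 encodes the protein that keeps mitochondrial ATP synthase from running backwards. Its change was 0.14 at T54, 0.14 at T60 and 0.08 at T66 (mean 0.12 ± 0.024 log2, SE, adjusted p = 0.0293). At T54 Atpif1 stood at 6.49, 6.45 and 6.39 log2 CPM in deprived mice, against 6.23, 6.36, 6.3, 6.28 and 6.36 in ZT6 controls, and the groups overlapped at T66 only. Gde1, a glycerophosphodiester phosphodiesterase, changed by 0.06, 0.16 and 0.07 at the 3 times (mean 0.10 ± 0.0199 log2, SE, adjusted p = 0.030). At T60 Gde1 stood at 7.5, 7.56 and 7.5 log2 CPM in deprived mice, against 7.34, 7.33, 7.4, 7.37 and 7.36 in ZT12 controls. It was the time at which Gde1 stood furthest from its controls. Fkbp1b, which binds the ryanodine receptor and steadies this calcium channel, changed by 0.05, 0.21 and 0.22 (mean 0.16 ± 0.0343 log2, SE, adjusted p = 0.0425). At T54 its 3 deprived libraries spread from 4.13 to 4.39 log2 CPM across the controls at 4.11 to 4.26, whereas at T60 and T66 they lay above all controls. On GRCm38, Atpif1 lies at chr4:132530555-132533659 (minus strand, with Gm12999 opposite), Gde1 at chr7:118688545-118705778 (minus strand, with Gm45236 opposite) and Fkbp1b at chr12:4833174-4841591 (minus strand).

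L3mbtl3, a reader of methylated lysines on chromatin proteins, was the gene that fell. It stood at 5.23, 5.19 and 5.26 log2 CPM in deprived mice at T54, against 5.34, 5.23, 5.28, 5.31 and 5.27 in ZT6 controls. At T60 it stood at 5.13, 5.02 and 5 log2 CPM in deprived mice, against 5.19, 5.3, 5.18, 5.24 and 5.08 in ZT12 controls. At T66 it stood at 5.1, 5.26 and 5.28 log2 CPM in deprived mice, against 5.35, 5.37, 5.41, 5.49 and 5.45 in ZT18 controls. Only at T66 did the groups not overlap. L3mbtl3 lies at chr10:26274468-26375971 on the minus strand. Its mean change was −0.13 ± 0.0276 log2 (SE, adjusted p = 0.0321). The remaining called entry, the lincRNA Gm4544 (chr15:102657111-102660468), is weakly expressed. It stood at 1.3, 1.04 and 1.37 log2 CPM in deprived mice at T54, against 0.66, 0.55, 0.58, 0.1 and 0.78 in ZT6 controls (mean over the 3 times 0.51 ± 0.0987 log2, SE, adjusted p = 0.0293). Depth is unknown, so the counting error behind such low values cannot be given.

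**Figure D1:**
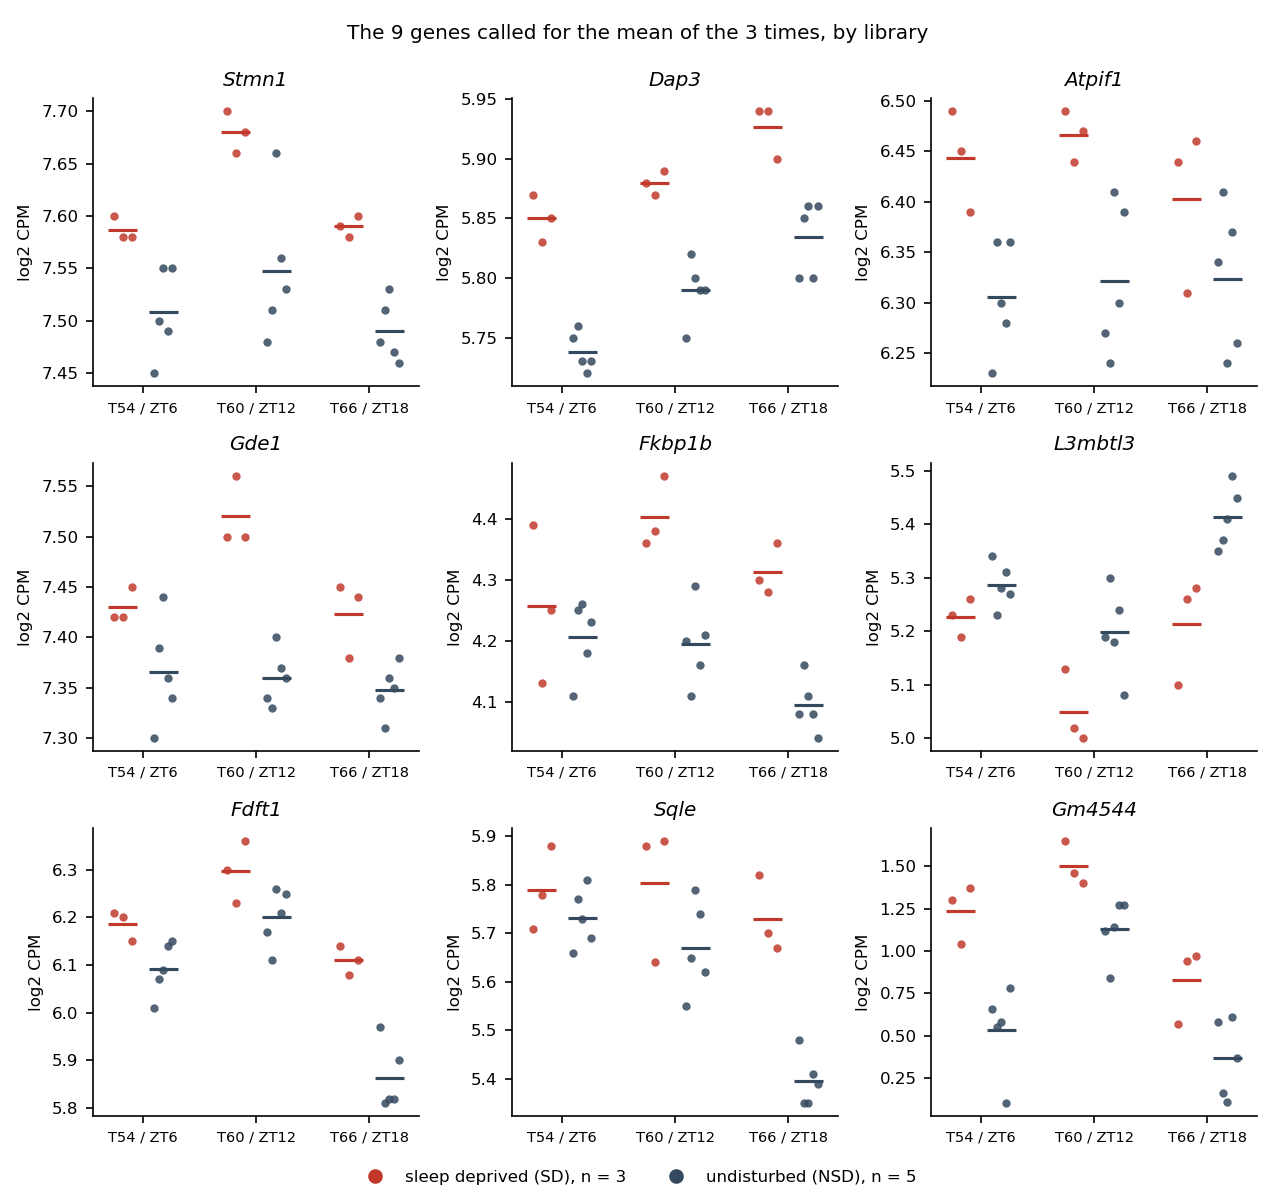
Log2 CPM of the 9 genes called for the mean of the 3 times, one panel per gene, with deprived libraries (SD, n = 3, red) left of controls of the same time of day (NSD, n = 5, dark) and bars at the group means. Dap3 and Stmn1 separate at all 3 times, and L3mbtl3 is lower in deprived mice. Each panel has its own axis, since the changes are small.

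The 9 calls were fragile. They were 0 when T6N2, T12N2 or T12N5 of the controls, or T54S1, T60S2, T60S4 or T66S5 of the deprived libraries was left out, 2 without control T18N7 and 3 without control T18N8. Without deprived library T66S2 4 genes were called, 1 higher and 3 lower, and only Gm4544 of the 9 was among them (names as in the labels: time, N or S for NSD or SD, and a number). They were 1 with same-batch controls alone, none of the 9 being among them, and 0 with libraries centred on their median. No gene of the 9 changed sign under any of the alternatives tried, and each stayed called in 8 (Sqle) to 23 (Atpif1 and Gm4544) of 37 to 38 settings.

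The list with called members was cholesterol synthesis and uptake, a list of 24 genes of the SREBP2 pathway, all measured. Its median change was 0.0882 at T54, 0.0703 at T60 and 0.228 at T66, against −0.0041, 0.00148 and −0.000613 over all genes. At T66 15 of the 24 were higher at an unadjusted p under 0.05 and 1 was lower, compared with 4 and 0 at T54 and 1 and 0 at T60. For the mean of the 3 times 18 were higher and 1 was lower, with a median of 0.118. Positive changes at all 3 times were found in 12 of the 24 and negative ones in none. Sqle and Fdft1 were called, both for the mean only, and no member was called for a difference between the 3 times.

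Sqle (squalene epoxidase) and Fdft1 (squalene synthase) catalyse neighbouring steps at which the pathway commits to sterols. At T54 Sqle stood at 5.71, 5.78 and 5.88 log2 CPM in deprived mice, against 5.66, 5.77, 5.73, 5.81 and 5.69 in ZT6 controls. At T60 it stood at 5.88, 5.64 and 5.89 log2 CPM in deprived mice, against 5.55, 5.65, 5.79, 5.74 and 5.62 in ZT12 controls. At T66 it stood at 5.82, 5.7 and 5.67 log2 CPM in deprived mice, against 5.48, 5.35, 5.35, 5.41 and 5.39 in ZT18 controls. The groups were apart at T66 and overlapped at T54 and T60. The changes of Sqle were 0.05, 0.13 and 0.33 at the 3 times (mean 0.17 ± 0.0376 log2, SE, limma, adjusted p = 0.0499), and its adjusted p at T66 alone was 0.0588.

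Fdft1 was likewise furthest from its controls at T66. At T54 Fdft1 stood at 6.21, 6.2 and 6.15 log2 CPM in deprived mice, against 6.01, 6.07, 6.09, 6.14 and 6.15 in ZT6 controls. At T60 it stood at 6.3, 6.23 and 6.36 log2 CPM in deprived mice, against 6.17, 6.11, 6.26, 6.21 and 6.25 in ZT12 controls. At T66 it stood at 6.14, 6.08 and 6.11 log2 CPM in deprived mice, against 5.97, 5.81, 5.82, 5.82 and 5.9 in ZT18 controls. Only at T66 were the groups apart, and the change of Fdft1 was 0.09, 0.10 and 0.25 at the 3 times (mean 0.15 ± 0.0309 log2, SE, adjusted p = 0.0425). Fdft1 (chr14:63145150-63179578, minus strand) overlaps Ctsb on the other strand, whose mean change was 0.0193 with a 95% interval of −0.0194 to 0.0581. Sqle lies at chr15:59315077-59331192 on the plus strand.

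Upstream of these, Hmgcs1 makes the precursor of mevalonate. At T66 Hmgcs1 stood at 8.16, 8.045 and 7.965 log2 CPM in deprived mice, against 7.796, 7.609, 7.672, 7.685 and 7.837 in ZT18 controls (change 0.34, adjusted p = 0.0993). Hmgcs1 was above every control at T66. In all, 12 of the 24 genes were, and 3.14% of all genes. Idi1, which isomerises the isoprenoid unit, stood at 3.568, 3.311 and 3.362 log2 CPM in deprived mice, against 3.028, 2.619, 3.028, 2.744 and 2.986 in ZT18 controls (change 0.53, adjusted p = 0.0993). Downstream, the sterol methyl oxidase Msmo1 stood at 6.454, 6.178 and 6.15 log2 CPM in deprived mice, against 5.993, 5.644, 5.787, 5.797 and 5.891 in ZT18 controls (change 0.44, adjusted p = 0.083). Idi1 had the largest change of the list at T66. Changes of Nsdhl (0.25), Cyp51 (0.28), Sc5d (0.21), Lss (0.20), Mvd (0.33) and Hsd17b7 (0.19), further enzymes of the pathway, had unadjusted p under 0.05 at T66 and none was called.

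Insig1 and Srebf2 act in the control of the pathway. Insig1, which holds the SREBP complex in the endoplasmic reticulum when sterol is plentiful, stood at 5.868, 5.934 and 5.86 log2 CPM in deprived mice at T66, against 5.655, 5.231, 5.57, 5.356 and 5.532 in ZT18 controls (change 0.42, adjusted p = 0.162). All 3 deprived libraries stood above the controls. The change of Srebf2, the gene of SREBP2 itself, was −0.009 at T66.

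As a group the 24 genes averaged 4.996 ± 0.0362 log2 CPM in deprived mice at T66 and 4.796 ± 0.0777 in ZT18 controls (SD, n = 3 and 5). At T54 the average was 5.139 ± 0.0246 in deprived mice and 5.074 ± 0.0784 in ZT6 controls. At T60 it was 5.088 ± 0.101 in deprived mice and 5.043 ± 0.0502 in ZT12 controls. Of the 3 control groups that of ZT18 had the lowest average, and the deprived average at T66 was nearer to those of T54 and T60. Taken per library as the mean difference from the control average, the T66 mice stood at 0.231, 0.209 and 0.16, against −0.056 to 0.135 in ZT18 controls, without overlap. Over the earlier hours the list's median was −0.298 at T30, with 17 members called lower, −0.104 at T36, 0.0298 at T42 and −0.0156 at T48. After T66 it was 0.02 at T72, 0.0615 at T78, −0.0954 at T192 and −0.0272 at T198, with no member called. The median at T192 was thus about as far from 0 as that at T54, on the other side. T42 has the ZT18 controls in common with T66, T36 has those of T60, and T30, T78 and T198 have those of T54. Sqle was lower than its controls at T30 by −0.456 (adjusted p = 2.61e-07).

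**Figure D2:**
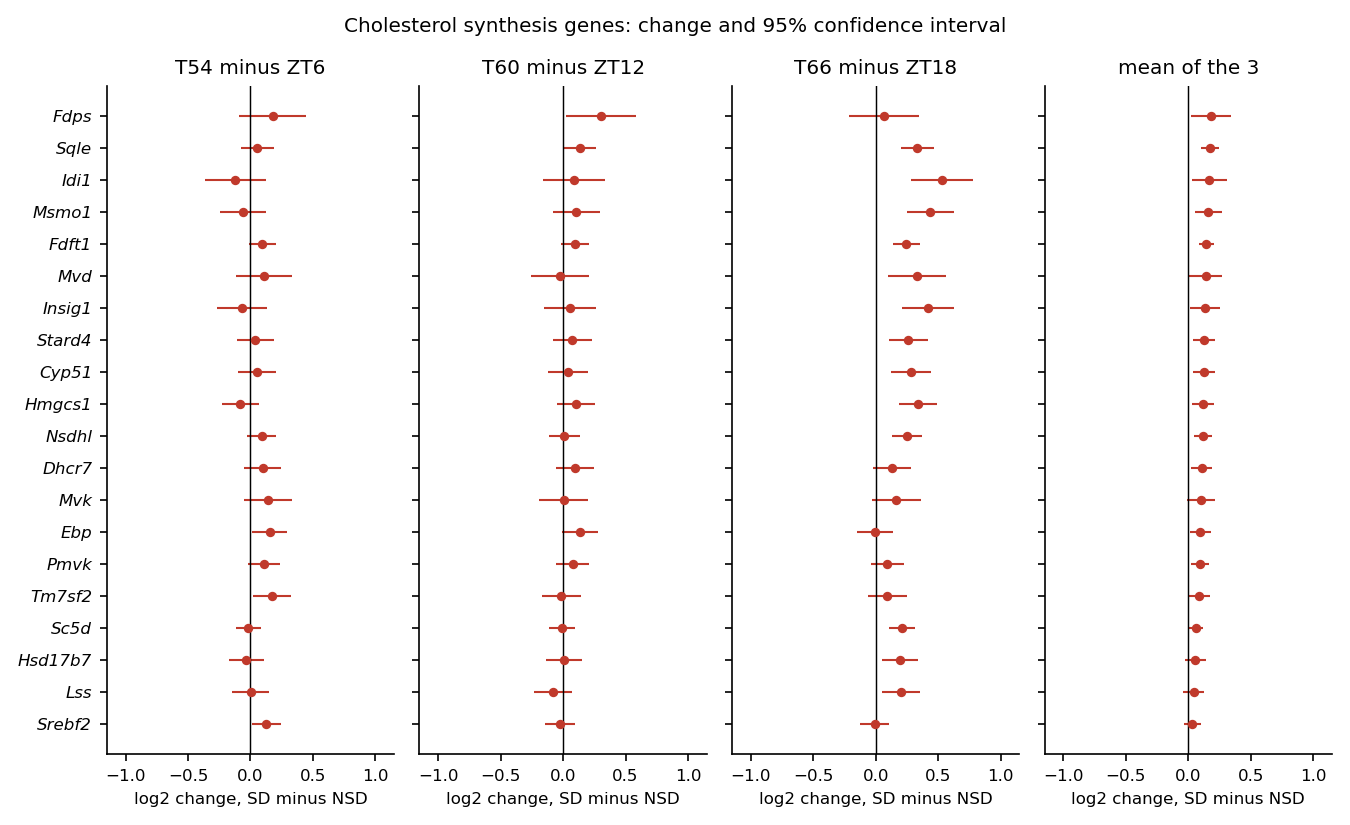
Change in log2 CPM, deprived minus control, of 20 of the 24 cholesterol synthesis and uptake genes at T54, T60, T66 and for the mean of the 3, with 95% confidence intervals and genes ordered by the mean change. Of these 20, 18 points lie right of 0 at T66 and 20 for the mean, and Idi1, Msmo1 and Insig1 lie furthest right at T66. Of all 24 genes, 21 were positive at T66 and 23 for the mean. The gene that was negative for the mean, by −0.283, is among those not drawn.

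The T66 count was similar without 1 library and within the batch. Without library T66S2 the list's median at T66 was 0.238 with 14 members higher at an unadjusted p under 0.05, and with same-batch controls alone 15 were. For the mean of the 3 times the count was 13 with same-batch controls, 5 with the replicate number as a block and 7 for the mean of T54 and T60 alone. Markers of oligodendrocytes, the myelin-forming cells that use much of the brain's cholesterol, moved at T66 too. All 12 were measured, with medians of −0.0877, 0.167 and 0.218 at the 3 times and 6 of 12 higher at an unadjusted p under 0.05 at T66. Per library their mean difference from controls was 0.524, 0.189 and −0.01 at T66, against −0.229 to 0.143 in ZT18 controls. Library T66S5 was thus within the controls for these markers, at −0.01, and above all of them for the cholesterol list, at 0.16. Without T66S2 the markers' median was 0.107. The part of oligodendrocyte RNA in the cholesterol result was not tested further.

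Promoter sequences of 16 of the 24 genes were in the RefSeq table (GRCm38.p6, 250 bases before to 50 after the start), those of Sqle and Fdft1 not among them. Motifs were searched as letters on both strands. The CCAAT box, bound by NF-Y, the usual partner of SREBP2, was in a window of 16 of 16 genes (100%), and in 42.4% of 12224 measured genes with a window. Some genes have several windows, and by window the shares were 84.2% of 19 and 37.3% of 15658. The CCAAT box was also in 77.8% of 18 core clock genes and in 43.5% of 62 respiratory chain genes. This motif was chosen after the values were seen. The sterol element TCACNCCAC was found in 1 of 16 genes (6.25%), Hmgcs1, and in 1.38% of all, and in Hmgcs1 no match overlaps another. The E-box CACGTG, bound by CLOCK and also by SREBP proteins, was in 25% of the 16 genes and in 11.1% of all, while 27.8% of 18 core clock genes held it. A match is a run of letters and not a shown binding site. The 250 bases before the start of Hmgcs1 (chr13:119690101-119690350, plus strand), Mvd (chr8:122443423-122443672, minus strand) and Nsdhl (chrX:72918271-72918520, plus strand) are shown as examples. These members were above every control at T66 and their windows hold more than 1 CCAAT box. The same held for Msmo1 and Idi1, with 3 and 2 CCAAT boxes in their windows, which are not shown. Capitals mark the CCAAT box in either orientation (CCAAT or ATTGG) and, in Hmgcs1, the sterol element.
Hmgcs1: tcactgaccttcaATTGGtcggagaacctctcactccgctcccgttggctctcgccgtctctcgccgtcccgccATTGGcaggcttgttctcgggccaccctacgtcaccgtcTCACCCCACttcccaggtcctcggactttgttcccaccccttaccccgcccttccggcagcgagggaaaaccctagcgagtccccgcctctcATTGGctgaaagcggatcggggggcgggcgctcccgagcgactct
Mvd: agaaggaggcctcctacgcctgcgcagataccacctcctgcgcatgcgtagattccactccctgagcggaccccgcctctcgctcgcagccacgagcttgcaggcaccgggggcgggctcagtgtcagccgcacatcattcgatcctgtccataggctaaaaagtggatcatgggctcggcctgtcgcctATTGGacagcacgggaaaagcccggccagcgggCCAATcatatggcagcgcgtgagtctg
Nsdhl: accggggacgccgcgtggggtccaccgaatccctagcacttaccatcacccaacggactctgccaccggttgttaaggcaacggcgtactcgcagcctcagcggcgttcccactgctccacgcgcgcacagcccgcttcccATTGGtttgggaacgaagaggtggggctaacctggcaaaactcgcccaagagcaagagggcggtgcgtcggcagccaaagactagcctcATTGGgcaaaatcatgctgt
Hmgcs1 holds 3 CCAAT boxes on the strand that reads ATTGG and its sterol element between the second and the third of them, whereas Mvd holds 1 in each orientation and Nsdhl 2 that read ATTGG. At T66 Nsdhl stood at 4.496, 4.462 and 4.487 log2 CPM in deprived mice, against 4.351, 4.197, 4.229, 4.172 and 4.207 in ZT18 controls (adjusted p = 0.152). Mvd stood at 3.864, 3.674 and 3.478 log2 CPM in deprived mice, against 3.472, 3.341, 3.321, 3.289 and 3.289 in ZT18 controls (adjusted p = 0.368).

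Genes of the respiratory chain and ATP synthase, 75 nuclear genes that build the complexes by which mitochondria make ATP, formed a list with most members on one side. Their median change was small, 0.062 at T54, 0.0825 at T60 and 0.0229 at T66, and 0.0583 for the mean of the 3 times. At the other deprived times of the series this median ran from −0.0452 at T192 to 0.0455 at T27, a range that holds the T66 value. Changes were positive in 64, 73 and 48 of 75 genes at the 3 times and in all 75 for the mean. None was called. At an unadjusted p under 0.05 20, 28 and 3 were higher at T54, T60 and T66 and 38 for the mean, and 36 were positive at all 3 times with none negative at all 3. By library the T60 mice stood at 0.058, 0.1 and 0.082 above the control average, against −0.021 to 0.058 in ZT12 controls. At T54 the values were 0.134, 0.039 and 0.031 in deprived mice, against −0.046 to 0.033 in ZT6 controls, and at T66 they were 0.07, −0.043 and 0.043 in deprived mice, against −0.021 to 0.011 in ZT18 controls. The values were uneven between libraries, with T54S1 standing apart at T54. Without T54S1 the count for the mean was 17, with libraries centred on their median 21, with same-batch controls 15, and for the means of T54 with T66 or T60 with T66 alone 10 and 21.

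Among them Ndufv3, a subunit of complex I, stood at 5.26, 5.203 and 5.242 log2 CPM in deprived mice at T60, against 5.12, 5.072, 5.221, 5.092 and 5.157 in ZT12 controls, where 1 control reached into the deprived range (mean change 0.095, adjusted p = 0.298). Atp5o, of the stalk of ATP synthase, stood at 5.69, 5.583 and 5.676 log2 CPM in deprived mice at T66, against 5.493, 5.505, 5.471, 5.516 and 5.494 in ZT18 controls, without overlap (mean change 0.09). Sdhb of complex II (mean change 0.06), Cyc1 of complex III (0.07) and Ndufa3 of complex I (0.10) had unadjusted p under 0.05 for the mean and none was called. Cytosolic ribosomal protein genes, 75 of 76 measured, had medians of 0.0438, 0.0545 and 0.0128, with 26 positive and 0 negative at all 3 times and 8 higher at an unadjusted p under 0.05 for the mean. At T54 that list rested on T54S1, at 0.179, while T54S2 and T54S4 stood at −0.003 and −0.036. At the other deprived times the ribosomal median ran from −0.056 at T48 to 0.0894 at T198, a range that holds the values of all 3 times here.

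**Figure D3:**
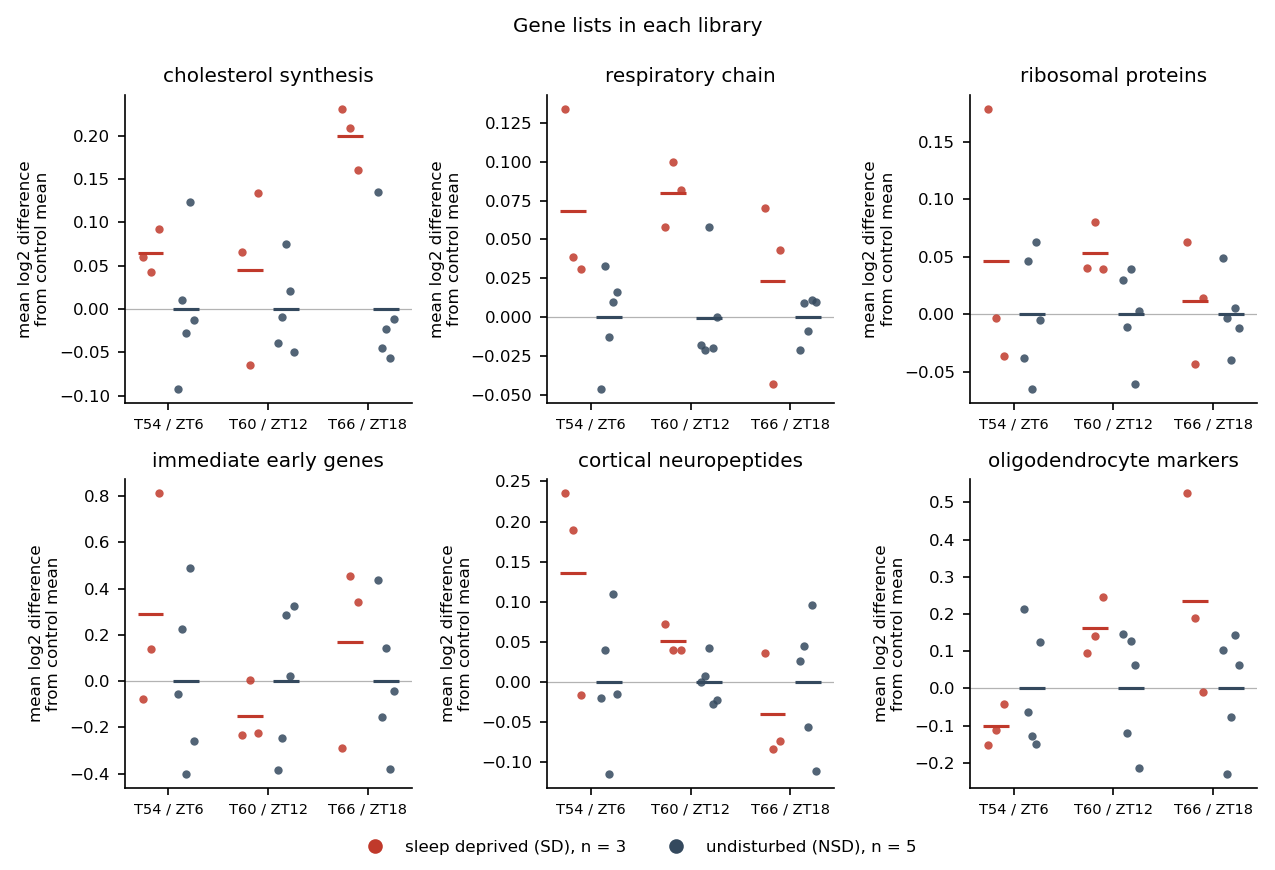
Mean log2 difference from the control average over the genes of 6 lists in every library, deprived (SD, n = 3, red) left of controls (NSD, n = 5, dark), with bars at the group means. The cholesterol list separates at T66, with deprived libraries at 0.16 to 0.231, the respiratory chain list stands highest at T54 and T60, and library T66S2 stands apart for the oligodendrocyte markers at 0.524.

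Clock genes form a feedback loop in which CLOCK and BMAL1 (Arntl) drive Per, Cry and Nr1d1 genes, whose products hold them back. No clock gene was called at any of the 3 times. The median change of the 21 genes was 0.0517 at T54, −0.109 at T60 and −0.0347 at T66, with 6, 1 and 0 members higher and 0, 3 and 2 lower at an unadjusted p under 0.05. At T60 the list's mean difference was −0.126, −0.093 and −0.105 in deprived mice, against −0.014 to 0.024 in ZT12 controls, without overlap. There 8 of 21 genes lay below every control and 1 above, where 3.9% and 4.33% of all genes did. Nr1d1 stood at 6.93, 7.018 and 6.976 log2 CPM in deprived mice at T60, against 7.278, 7.316, 7.273, 7.186 and 7.208 in ZT12 controls. Arntl, which peaks opposite to it, stood at 5.169, 5.164 and 5.385 log2 CPM in deprived mice, against 5.133, 5.105, 5.063, 5.158 and 5.026 in ZT12 controls. Both were apart from their controls at T60, in opposite directions.

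Across the 3 times the clock list had no common direction. The repressor Per2 stood at 5.253, 5.456 and 5.562 log2 CPM in deprived mice at T54, against 4.663, 5.186, 4.614, 5.253 and 4.677 in ZT6 controls (change 0.54, adjusted p = 0.266), where the lowest deprived library was level with the highest control. Its change was −0.22 at T60 and −0.18 at T66. The changes of Per1 were 0.36, −0.33 and 0.09, those of Per3 0.18, −0.14 and −0.03, those of Cry1 0.24, 0.02 and −0.08, and those of Dbp, an output of the loop, 0.05, −0.13 and −0.17. Only Nfil3, a repressor of the same D-box sites that Dbp activates, was positive at all 3 times (0.15, 0.18 and 0.15, adjusted p for the mean 0.596), and 5 genes, Rora and Rorb among them, were negative at all 3. At T27 and T30, during and at the end of deprivation, the changes of Per2 were 1.49 and 1.02. T30 has its controls in common with T54.

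Among single times, the genes closest to the threshold differed from time to time. At T54 they were Rac3 and Cort, the gene of cortistatin, a peptide of cortical interneurons. Cort stood at 2.85, 2.68 and 2.01 log2 CPM in deprived mice, against 1.57, 1.44, 1.28, 1.97 and 1.74 in ZT6 controls (change 0.91, 95% interval 0.5419 to 1.279, adjusted p = 0.0684). The small GTPase gene Rac3 stood at 3.64, 3.45 and 3.41 log2 CPM in deprived mice, against 3.06, 3.15, 2.9, 3.19 and 3.08 in ZT6 controls (change 0.43, adjusted p = 0.0684). Both genes stood above all of their controls at T54 (Cort at chr4:149125034-149126763, minus strand, and Rac3 at chr11:120721470-120723969, plus strand), and the changes of Rac3 were 0.09 at T60 and −0.17 at T66. Of 17 measured neuropeptide genes 8 were higher and 1, Pdyn, lower at an unadjusted p under 0.05 at T54, among the higher ones Npy (0.22), Sst (0.20), Cck (0.20) and Penk (0.26), with a list median of 0.204. At T60 and T66 none was. By library this list stood at 0.235, 0.189 and −0.016 at T54, against −0.114 to 0.11 in ZT6 controls, so T54S4 was within the controls. Interneuron markers had a median change of −0.017 at T54.

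At T60 the smallest adjusted p, 0.218, was shared by a few genes, among them Frrs1, the gene of a ferric reductase. Frrs1 stood at 0.9, 0.6 and 0.59 log2 CPM in deprived mice, against 1.58, 1.42, 0.99, 1.19 and 1.4 in ZT12 controls (change −0.62). At T66 Timeless, a gene of the replication fork and checkpoint, stood at 2.59, 2.45 and 2.51 log2 CPM in deprived mice, against 2.83, 3.03, 3.01, 2.96 and 3.08 in ZT18 controls (change −0.47, 95% interval −0.6576 to −0.2725, adjusted p = 0.0588). Both lay below all of their controls. Scd1, the desaturase that makes monounsaturated fatty acids, stood at 7.91, 7.75 and 7.66 log2 CPM in deprived mice at T66, against 7.52, 7.42, 7.53, 7.49 and 7.52 in ZT18 controls (change 0.28, adjusted p = 0.0588). Its changes at T54 and T60 were −0.03 and 0.03.

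Immediate early genes, which neurons switch on within minutes of activity, varied more between mice of 1 group than between groups. Of 28 listed, 27 were measured, with medians of 0.292 at T54, −0.114 at T60 and 0.19 at T66. Single libraries moved these medians. Without T54S4, which itself stood at a median of 0.674 from its controls, the T54 median was 0.0362. Without T66S2, which stood at −0.234, the T66 median was 0.324. Arc stood at 5.246, 6.017 and 8.018 log2 CPM in deprived mice at T54, against 6.382, 4.674, 5.109, 7.196 and 5.644 in ZT6 controls (change 0.63, 95% interval −0.7444 to 1.9962). The deprived and control ranges covered each other, and a change of this size was not detectable. Bdnf (0.30) and Vgf (0.27) at T54 and Ier5 (0.31) at T66 were the members with an unadjusted p under 0.05. Chaperones, which are among the main responders to sleep loss, had mean-of-3 medians of 0.00946 for 24 cytosolic and −0.0262 for 20 endoplasmic reticulum genes. Of these, 14 of 24 and 3 of 20 had positive mean changes, and none was called. The cold-inducible gene Rbm3 had a mean change of 0.12 (95% interval 0.0212 to 0.2247) and was not called, and the differences of Homer1, a scaffold gene that responds to wake, were −0.03 at T60 and 0.01 at T66.

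The count at T54 depended on single libraries, most of all on T54S4. With T54S4 left out, 806 genes (4.71%) were called at T54, 539 higher (median change 0.232) and 267 lower (median −0.207), 10 of them beyond 2-fold, whereas none was when T54S1 or T54S2 was left out. Leaving out control T6N3 gave 8 genes, J76N1 3 and T18N2 1. T54S4 itself was on the called side for 308 of the 806 and beyond every control on that side for 58. The deviations from controls of T54S1 and T54S2 correlated over genes at r = 0.385, against 0.126 and 0.0874 for T54S4 with each of them, and genes are not independent replicates. Called members then included 15 of 75 ribosomal protein genes, 15 of 75 respiratory chain genes and 6 neuropeptide genes, all higher, with Cort at 1.16 (adjusted p = 0.00479), and 1 cholesterol gene. The largest changes were those of Cort and Gpsm3 (1.05) above and Gpr101 (−1.89) below.

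**Figure D4:**
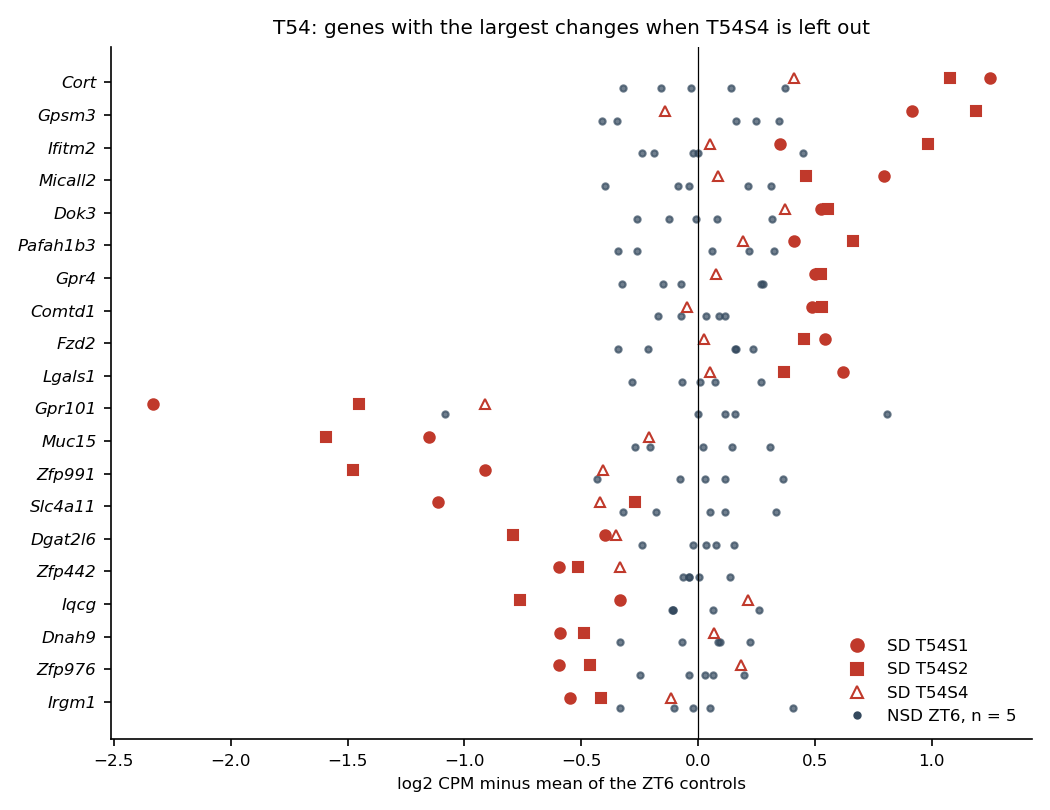
Log2 CPM minus the mean of the 5 ZT6 controls for the genes with the largest changes at T54 when library T54S4 is left out, chosen on these values. Red filled marks are deprived libraries T54S1 and T54S2, open triangles T54S4 and small dark points the controls. For Cort all 3 deprived libraries lie above the controls, and for most other genes T54S4 lies among them.

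These genes differed in base composition. The median GC content of their transcripts was 57.9% for the 539 higher and 42% for the 267 lower genes, and 49.3% over all genes. In T54S1 and T54S2 the 3412 most GC-rich genes (GC of 55.3% or more) stood above the 3412 most GC-poor genes (43.6% or less) by 0.275 and 0.279, taken as medians of the difference from controls, while T54S4 stood at −0.0897 and ZT6 controls at −0.126 to 0.121. At T60 the 3 deprived libraries stood at −0.0142 to 0.0435, against −0.081 to 0.0819 in ZT12 controls. At T66 T66S3 and T66S5 stood at −0.197 and −0.172 and T66S2 at 0.0115, against −0.0924 to 0.116 in ZT18 controls. The libraries with the shift are thus the pair kept when T54S4 is left out. With the GC trend of each library removed, a step chosen after seeing the data, 3 genes were called at T54 without T54S4, Cort among them (0.99, adjusted p = 0.0168). Cholesterol, respiratory chain and ribosomal lists had median GC contents of 49.7%, 50.2% and 51%, near that of all genes. Their median transcript lengths were 3492, 1141 and 1106 bases, against 3198 over all genes. Among the genes called at T54 without T54S4, the median length was 2748 bases for the higher and 4844 for the lower. Whether transcript length had a part in the changes of these lists was not tested.

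**Figure D5:**
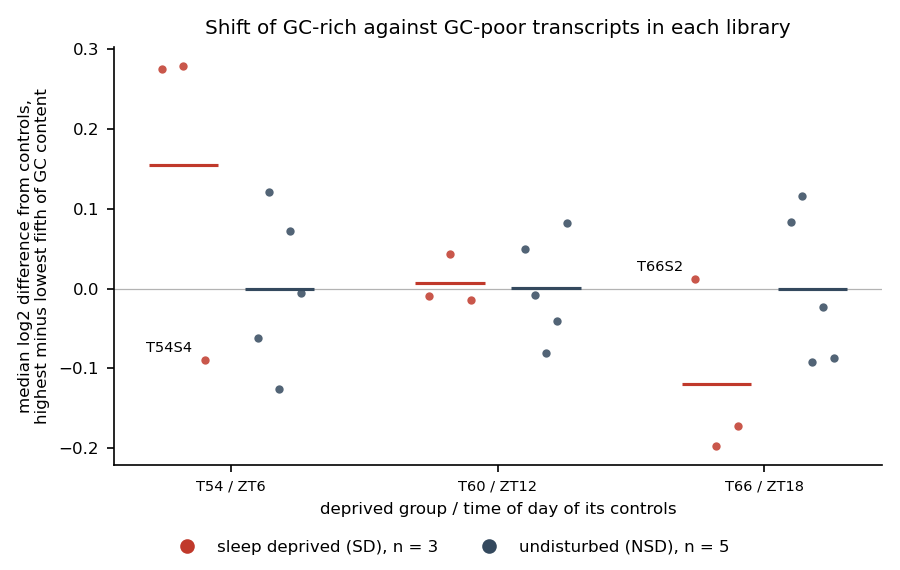
For each library, the median log2 difference from controls of the 3412 most GC-rich genes minus that of the 3412 most GC-poor genes, deprived (SD, n = 3, red) left of controls (NSD, n = 5, dark), with bars at the group means. T54S1 and T54S2 stand at 0.275 and 0.279, above all controls, and T66S3 and T66S5 below theirs.

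With that step and all libraries, still no gene was called at T54, T60 or T66, and 20 (0.117%) were for the mean of the 3 times, 11 higher and 9 lower. All 9 genes above were among them. The further ones included Tuba1b (0.124), an alpha tubulin, Gabarap (0.079), which joins the membrane of autophagosomes, and Mpnd (0.133) among the higher, and Lrp1 (−0.136), a receptor for lipoproteins carrying apolipoprotein E, Plec (−0.106), Ptprs (−0.073), Camkk1 (−0.111) and Cd163 (−0.531) among the lower. The cholesterol list then had medians of 0.0555, 0.0661 and 0.219 at the 3 times, with 19 of 24 higher at an unadjusted p under 0.05 at T66, and 18 for the mean. The respiratory chain list had 39 for the mean. At T54 the neuropeptide list had a median of 0.128 after this step, with 7 of 17 higher and 1 lower at an unadjusted p under 0.05. At T66 leaving out T66S2 gave 25 called genes (0.146%), 8 higher and 17 lower, and 13 after the GC step. Among the 25 were Sc5d of cholesterol synthesis (0.25), Btla (−1.55, adjusted p = 0.000608) and Timeless (−0.50, adjusted p = 0.0341), and T66S2 was on the same side for 15.

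Genes called at earlier times after deprivation were followed in comparisons that share no library with the earlier one. Of 2678 genes called higher at the end of deprivation (T30), 36.7% were above their controls at T60 and 37.8% at T66, where 50.6% and 49.8% of all genes were. Of 2872 genes called lower at T30, 38.9% were below their controls at T60 and 39.8% at T66, where 49.4% and 50.2% of all genes were. Most of them thus had the opposite sign at these times, with median changes of −0.0256 and −0.0277 for the genes higher at T30. Taking T30 from batch 1 and the later times from batch 2 alone, the shares for the higher genes were 27.1% at T60 and 46.3% at T66. Those of all genes above were 50.5% and 49.2%. For the genes lower at T30 the shares below were 32.4% at T60 and 45.3% at T66, against 49.5% and 50.8% of all genes. With the batches kept apart, the shares at T66 were thus near those of all genes. Most genes called during deprivation, at T27, had the same sign at T54 and T66 and the opposite sign at T60. Of those higher, 59.8% were above their controls at T54, 36.4% at T60 and 53.3% at T66 (48.6%, 50.6% and 49.8% of all genes). Of those lower, 59.3%, 44.9% and 54.4% were below (51.4%, 49.4% and 50.2% of all genes). With the batches kept apart, 26.8% of the higher genes were above at T60 and 57.2% at T66 (50.5% and 49.2% of all genes). Of the lower genes, 35.6% and 56.2% were then below (49.5% and 50.8% of all genes). Of genes called higher at T36, 57.7% were above their controls at T54 (48.6% of all genes), and of those lower 57.2% were below (51.4% of all genes). Genes called higher at T36 were above their controls at T66 in 26.9% and genes called lower were below in 31%, and in 28% and 28.3% with the batches kept apart. Of 123 genes called lower at T48, 68.3% at T54, 56.9% at T60 and 74% at T66 were also below their controls. The shares of all genes below were 51.4%, 49.4% and 50.2%. For the 132 genes called higher at T48, the shares above their controls were 56.1%, 50% and 56.1% at these times. Those of all genes above were 48.6%, 50.6% and 49.8%. These shares are descriptions over genes that move together in a library, and whether they differ from those of all genes was not tested.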

How the data were processed

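Gene expression in cortex was deposited by the authors as log2 CPM values in 1 table, with 17185 entries from −6.017 to 14.25. The sums of their antilogs per library (979177 to 1020372) show the unit. The tools named in the submitters' processing notes are fastp, STAR 2.7.0e and edgeR, and the build is mm10 (GRCm38). The cortex libraries are labelled as a re-analysis of earlier samples and the protocol text describes liver, so cortex preparation, strandedness and the counting of overlapping genes are not given in the sources used here. Depth per library is unknown, and no counting interval can be given. The values had been adjusted for the label batch before deposit: within groups the batch difference was 0 for every gene (largest coefficient 4.36e-14), and 1 dimension had been removed, which the batch covariate accounts for.

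The 77 entries without a name (0.0618% of the signal) were left out. In cortex 8 symbols stand on several entries, and no column lacked a sample. limma 3.58.1 in R 4.3.3 (lmFit, eBayes with a mean trend) was fitted to all 62 cortex libraries, 17 groups and batch (44 residual degrees of freedom), with two-sided tests, Benjamini-Hochberg adjustment over 17108 genes and a threshold of 0.05. The same fit was also run on simulated data, whose means, batch terms and spread were taken from the fit to the real data. Contrasts were T54 minus ZT6, T60 minus ZT12, T66 minus ZT18, their mean, and an F test of their difference. By the rule for named genes, genes were named where called and beyond every control (Dap3, Stmn1), where called within a list (Fdft1, Sqle), and from a set always reported (clock, activity, chaperone and cold-inducible genes). Others were named after their values were seen. A few list members are counted in the lists and not reported here by name. The members and gene lists were chosen with earlier results of these data known. List values are counts and medians, with no test of the list. The GC adjustment, chosen after seeing the data, took from each library its median difference from the gene's mean in each of 20 bins of transcript GC content. Positions and transcripts came from GENCODE M21 (GRCm38), and promoters from RefSeq (GRCm38.p6). Figures were drawn with matplotlib 3.10.9 in Python 3.11.15.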

Additional observations from a re-analysis of the deposited data

Results flagged for a closer look

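Among 63 sets of 5 control libraries examined (gene lists and named genes by time of day), 2 held a library whose gap to the nearest of the others was large for its group's range, which chance gives in about 1 in 20 sets. For the cholesterol synthesis list, ZT18 control T18N2 stood at 0.135 (mean log2 difference from the control average), apart from the other ZT18 controls. Without T18N2, Sqle, Fdft1, Msmo1 and Timeless were called at T66. For the respiratory chain list, ZT12 control T12N4 stood at 0.058, level with the lowest deprived library at T60. No explanation was tested for either.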

How the results depend on the processing

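None of the 9 genes called for the mean changed sign under any alternative tried, but the balance of calls did: 8 were higher and 1 lower with all libraries, against 1 higher and 3 lower without T66S2, and 7 higher and 8 lower without T66S2 after the GC adjustment. Genes called at T54 were 2 without the batch covariate, with log2(CPM + 1) and with the replicate number as a block (Cort and Rac3 each time). At T66 they were 14 without the batch covariate, 4 without the lowest 20% of genes and 1 with same-batch controls alone. The difference between the 3 times gave 11 without the batch covariate. The 9 genes of the mean became 0 with libraries centred on their median, with the 24 libraries alone and with the replicate block, 1 with same-batch controls, 5 for the mean of T54 and T60, and 0 for that of T60 and T66 or of T54 and T66. Cholesterol synthesis genes higher for the mean (18) became 5 under the replicate block and 7 for T54 and T60 alone. Respiratory chain genes higher for the mean (38) became 21 with centring, 15 with same-batch controls, 22 under the replicate block, 21 for T60 and T66 and 10 for T54 and T66. Adjusted for GC content, a setting added after seeing the data like the pairs of times, the mean gave 20 called genes, 18 without T54S4 and 15 without T66S2. T54 gave 3 without T54S4, T66 gave 13 and the difference 1 without T66S2. Leaving out 1 library at a time, calls were 0 to 806 at T54, 0 to 2 at T60, 0 to 25 at T66, 0 to 12 for the mean, 0 to 0 with the same direction at all 3 times and 0 to 328 for the difference (328 without T54S4). Cholesterol counts were 12 to 20 for the mean and 14 to 17 at T66, and respiratory chain counts 17 (without T54S1) to 45 (without T66S3). Replicate numbers of the labels did not pair the libraries: same-numbered libraries' deviations correlated at −0.0793 to 0.151. The cause of these shifts was not tested. Unknown depth limits the lowly expressed genes, and single-time changes under about 0.16 log2 were below the precision of most genes. That figure comes from unadjusted intervals, and larger changes could also miss the adjusted threshold.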
